A study of Mus musculus with 4 samples.

Results

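The genes described here are 10 imprinted growth genes that lie outside the Dlk1-Meg3 domain, out of 18193 named genes on the array. They were chosen by symbol. The 5 expressed from the maternal copy are Cdkn1c, Igf2r, Phlda2, Ascl2 and Grb10, and the 5 expressed from the paternal copy are Igf2, Peg3, Nnat, Mest and Plagl1. Grb10 is expressed from the paternal copy in neurons. All 22 probe sets annotated to exactly 1 of these symbols were used, and 1 probe set shared by Airn and Igf2r was left out. Parent of origin was not measured, since an array probe does not tell the copies apart, so the classes rest on textbook knowledge of the mouse. Imprinting can depend on the tissue, and whether each class holds in the cells used here was not tested.

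Imprinted genes are transcribed mainly from the copy inherited from 1 parent, and the choice of copy is set by DNA methylation laid down in the egg or the sperm. Many of them act on growth. In mammals paternally expressed genes often promote the growth of the fetus and placenta, as Igf2 does, and maternally expressed genes often restrain it, as Cdkn1c and Igf2r do. In trophoblast, Polycomb complexes take part in silencing the paternal copies of genes around Kcnq1ot1, among them Cdkn1c, Phlda2 and Ascl2 in the mouse.

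The RNA came from mouse embryonic stem (ES) cells and was measured on 4 Affymetrix arrays, 1 per group. The groups are a constitutive Ring1B knockout (KO), a wild-type control of it, a conditional double KO of Ring1A and Ring1B (dKO) taken on day 4 and a wild-type control of that. The dKO was induced with OHT, a tamoxifen metabolite, because cells lacking both proteins constitutively could not be kept. Ring1A and Ring1B, encoded by Ring1 and Rnf2, are the RING-finger proteins of Polycomb repressive complex 1. The labels do not say whether the dKO control carried the inducible alleles or received OHT, nor the strain, the clone or the feeder cells of any group.

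Signals are the authors' MAS5 intensities, scaled here to 1 mean for all arrays, taken without the highest and lowest 2% of probe sets. Signals under a floor of 36.6, the 40th percentile, were set to it. A log2 difference is that of the KO or dKO array minus its own control, and 2-fold is 1 on that scale. No difference has a replicate check and no test was run, and having 1 array per group limits the precision. The genes above the floor numbered 11185 to 11896 per array. The targeted genes were not at least 2-fold lower on the arrays labelled KO and dKO at any of their probe sets above the floor, so they do not check the labels. The brightest Rnf2 probe set read 2775 on the array labelled Ring1B KO against 2579.7 on its control, and 1986 on the array labelled dKO against 2182 on its control. Ring1 read 164 on the array labelled Ring1B KO against 146 on its control, and 55.6 on the array labelled dKO against 44.7 on its control. A probe set outside a deleted stretch checks nothing, and whether these lie inside it is not stated in the labels, so the arrays are called by their labels.

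Of the 10 genes, all but Ascl2 differed from their control in opposite directions in the pairs, some of them by little. Among 11611 genes above the floor in both pairs, 62.1% also had opposite directions. Igf2, Cdkn1c and Plagl1 were higher on the array labelled Ring1B KO and lower on the array labelled dKO, each by at least 2-fold against its own control. Peg3 and Nnat went the other way, at least 2-fold higher on the array labelled dKO and under 2-fold lower on the array labelled Ring1B KO. Phlda2 and Mest hardly differed between any arrays. The split ran through the paternally expressed genes, since Igf2 and Plagl1, which like Cdkn1c were lower on the array labelled dKO, are paternally expressed like Peg3 and Nnat.

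To show the start regions of the paternally expressed genes that parted ways, RefSeq windows of 300 bases (250 before to 50 after an annotated start, build GRCm38.p6) are given 5′ to 3′ for Igf2 and Plagl1, and then for Peg3 and Nnat. Capitals mark TGCCGC or its reverse complement, the letters that ZFP57, a zinc finger protein that keeps imprints in the mouse embryo, binds when they are methylated.
Igf2, the second of 4 windows, chr7:142661222-142661521, minus strand: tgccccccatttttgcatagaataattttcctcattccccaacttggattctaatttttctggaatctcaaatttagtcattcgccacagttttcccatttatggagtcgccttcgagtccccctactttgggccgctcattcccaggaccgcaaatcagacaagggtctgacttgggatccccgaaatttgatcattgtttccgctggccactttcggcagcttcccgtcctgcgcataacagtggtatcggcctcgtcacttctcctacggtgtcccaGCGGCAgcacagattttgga
Plagl1, chr10:13090582-13090881, plus strand: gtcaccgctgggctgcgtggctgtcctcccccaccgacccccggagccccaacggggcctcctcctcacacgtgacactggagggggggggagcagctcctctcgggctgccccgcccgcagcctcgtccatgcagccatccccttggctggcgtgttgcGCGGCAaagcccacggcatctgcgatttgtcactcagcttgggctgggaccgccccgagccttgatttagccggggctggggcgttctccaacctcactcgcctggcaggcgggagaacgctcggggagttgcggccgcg
Peg3, chr7:6730370-6730669, minus strand: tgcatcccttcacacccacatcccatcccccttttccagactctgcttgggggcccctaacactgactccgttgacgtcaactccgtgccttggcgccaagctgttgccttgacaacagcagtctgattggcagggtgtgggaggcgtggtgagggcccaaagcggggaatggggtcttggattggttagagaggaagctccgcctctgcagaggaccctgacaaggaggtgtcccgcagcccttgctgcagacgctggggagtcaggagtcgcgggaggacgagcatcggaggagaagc
Nnat, chr2:157559828-157560127, plus strand: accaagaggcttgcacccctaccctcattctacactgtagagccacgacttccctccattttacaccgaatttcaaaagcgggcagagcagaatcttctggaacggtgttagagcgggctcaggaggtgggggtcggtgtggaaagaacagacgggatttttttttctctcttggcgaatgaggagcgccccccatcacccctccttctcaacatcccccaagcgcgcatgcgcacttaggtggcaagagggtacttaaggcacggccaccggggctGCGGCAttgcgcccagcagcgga
The printed Igf2, Plagl1 and Nnat windows each hold the letters once, and the Peg3 window does not hold them. The printed Igf2 window is the only one of its 4 that holds them, and the other Igf2 windows have 2, 24 and 7 CG. The CG dinucleotide, the site of DNA methylation, occurs 14 times in this Igf2 window, 26 times in that of Plagl1, 13 times in that of Peg3 and 17 times in that of Nnat.

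Windows were matched by symbol for 9 members, 15 windows in all, and not for Cdkn1c. TGCCGC, searched on both strands, occurred in 6 of the 15 windows, or 40%, against 11.6% of 32851 windows of all genes. A pair of the 6 are overlapping windows of Mest and share their letters. CG was also more frequent in the members' windows, with 13 of 15 above the median of 7 over all windows. Among all windows above that median 21.0% hold TGCCGC. That share is not matched to the CG of each member window, so it does not remove the difference in CG. The first Grb10 window has 45 CG and that of Igf2r 34, more than 98.1% and 92.3% of all windows. A match of letters is a description and not a binding site.

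**Figure D1:**
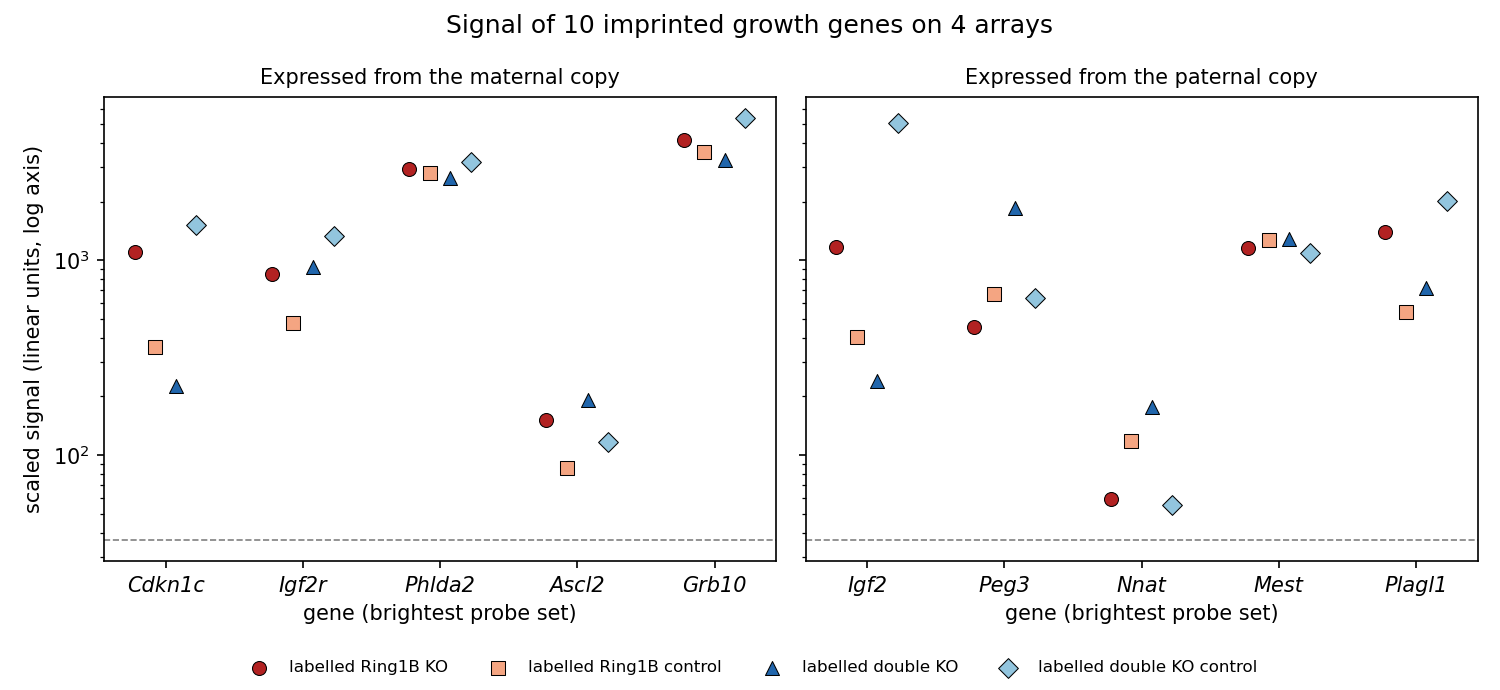
Scaled signal (linear units on a log axis) of the brightest probe set of each of the 10 genes, 1 point per array, with maternally expressed genes on the left and paternally expressed genes on the right; the dashed line is the floor of 36.6. Igf2 spans 239 to 5049.9 over the arrays and Cdkn1c 226 to 1513, Peg3 and Nnat are highest on the array labelled dKO, and Phlda2 and Mest lie close together.

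Igf2 encodes insulin-like growth factor 2, a fetal growth factor. Its main probe set, 1448152_at, read 1167 on the array labelled Ring1B KO against 404 on its control, and 239 on the array labelled dKO against 5049.9 on its control. The dKO control array stood far above the other arrays. The signal was 2.89-fold higher on the array labelled Ring1B KO than on its control and 21.1-fold lower on the array labelled dKO than on its control. Between the arrays labelled wild-type, the dKO control was 12.5-fold above the Ring1B control. The second Igf2 probe set, 1415931_at, was above the floor only on the dKO control array, at 49.4. With the mean over both probe sets, which the dim second one shrinks, the Ring1B difference was 0.76, under 2-fold, and the dKO difference −2.42.

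Cdkn1c encodes p57, an inhibitor of cyclin-dependent kinases that restrains fetal growth and is expressed from the maternal copy. Its only probe set, 1417649_at, read 1102 on the array labelled Ring1B KO against 359.9 on its control, and 226 on the array labelled dKO against 1513 on its control. The order of the arrays was that of Igf2. The differences were 1.61 in the Ring1B pair (3.06-fold higher) and −2.74 in the dKO pair (6.69-fold lower). Over the alternatives tried they ranged from 1.61 to 1.64 and from −2.87 to −2.67. Changes of floor or probe set could not move them, since Cdkn1c has 1 probe set, bright enough to stay above each floor.

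Plagl1 encodes a zinc finger transcription factor, also called Zac1, that is known to activate Igf2 and Cdkn1c in the mouse. Probe set 1426208_x_at read 1395 on the array labelled Ring1B KO against 539.7 on its control, and 718 on the array labelled dKO against 2004 on its control. It was 2.58-fold higher in the first pair and 2.79-fold lower in the second. Its suffix marks probes that may also match transcripts of other genes, and it was the only one of 3 for Plagl1 clearly above the floor. Probe set 1450533_a_at was under the floor on every array, and 1438588_at exceeded it only on the dKO control array, at 39.0. The size and direction for Plagl1 thus rest on 1 probe set that may not be specific.

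Peg3 encodes a large zinc finger protein of the paternally expressed group. Probe set 1433924_at read 452 on the array labelled Ring1B KO against 668 on its control, and 1861 on the array labelled dKO against 642 on its control. The array labelled dKO was the high one. It was 2.90-fold above its control (1.54), and the array labelled Ring1B KO differed from its control by −0.56. At probe set 1417355_at the array labelled Ring1B KO had 388 against 662 on its control, and the array labelled dKO had 2089 against 487. At 1417356_at the array labelled Ring1B KO had 139.6 against 262, and the array labelled dKO had 935 against 279. All 3 gave the same directions, with dKO differences of 1.54 to 2.10 and Ring1B differences of −0.91 to −0.56. The remaining 2 probe sets, 1447731_at and 1447732_x_at, were under the floor on all arrays.

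Nnat encodes neuronatin, a small membrane protein of the endoplasmic reticulum. Its probe set read 59.6 on the array labelled Ring1B KO against 119 on its control, and 176 on the array labelled dKO against 55.6 on its control. These signals are dim, and the array labelled dKO held the highest. Nnat differed by −0.99 in the Ring1B pair, just short of 2-fold, and was 3.16-fold higher on the array labelled dKO (1.66). Raising the floor to the 60th percentile brought the dKO difference to 0.48.

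Mest, which encodes a hydrolase-like protein of the mesoderm, read 1156 on the array labelled Ring1B KO against 1268 on its control, and 1287 on the array labelled dKO against 1094 on its control. All arrays lay close together, with differences of −0.13 and 0.23.

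Igf2r encodes the receptor that takes up IGF2 and delivers it for breakdown. Probe set 1424112_at read 846 on the array labelled Ring1B KO against 479 on its control, and 919 on the array labelled dKO against 1336 on its control. The differences were 0.82 and −0.54, both under 2-fold. The second probe set, 1424111_at, gave 0.76 and −0.31. Between the arrays labelled wild-type the dKO control was 2.79-fold above the Ring1B control at the first probe set and differed by 1.97 on the log2 scale at the second.

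Grb10 encodes an adaptor protein that dampens insulin and IGF receptor signalling. Probe set 1425458_a_at read 4156 on the array labelled Ring1B KO against 3606 on its control, and 3272 on the array labelled dKO against 5396 on its control. The array labelled dKO was lower by 1.65-fold, and the 3 probe sets of Grb10 gave −0.72, −0.72 and −0.71 there. In the Ring1B pair they gave 0.13 to 0.29.

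Phlda2, which restrains growth of the placenta, read 2952 on the array labelled Ring1B KO against 2800.4 on its control, and 2631 on the array labelled dKO against 3203 on its control. Its differences were 0.08 and −0.28, so the arrays were close to each other. Ascl2, a transcription factor gene of the trophoblast, was dim at each of its 3 probe sets. At the brightest, 1460514_s_at, it read 151.5 on the array labelled Ring1B KO against 85.4 on its control, and 191 on the array labelled dKO against 116 on its control. Ascl2 was the only member higher in both pairs, by 0.83 and 0.72, and the other probe sets gave 0.21 to 0.23 in the Ring1B pair and 0.25 to 0.37 in the dKO pair.

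Counted over the 10 genes, 3 were at least 2-fold higher on the array labelled Ring1B KO, against 3.57% of the 12366 genes above the floor on at least 1 array of the pair. None of the 10 was at least 2-fold lower there, against 2.60% of all such genes, so 3 were at least 2-fold apart, against 6.17%. At any size 7 of the 10 were higher, against 48.2%. On the array labelled dKO 3 were at least 2-fold lower, against 10% of 12384 genes, and 2 were at least 2-fold higher, against 3.0%. That makes 5 at least 2-fold apart, against 13%, and at any size 4 were higher, against 45.3%. The median over the 10 genes was 0.51 in the Ring1B pair and −0.41 in the dKO pair, beside −0.02 and −0.05 over all genes tested. In bulk RNA, fewer cells of a type and less RNA per cell cannot be told apart.

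**Figure D2:**
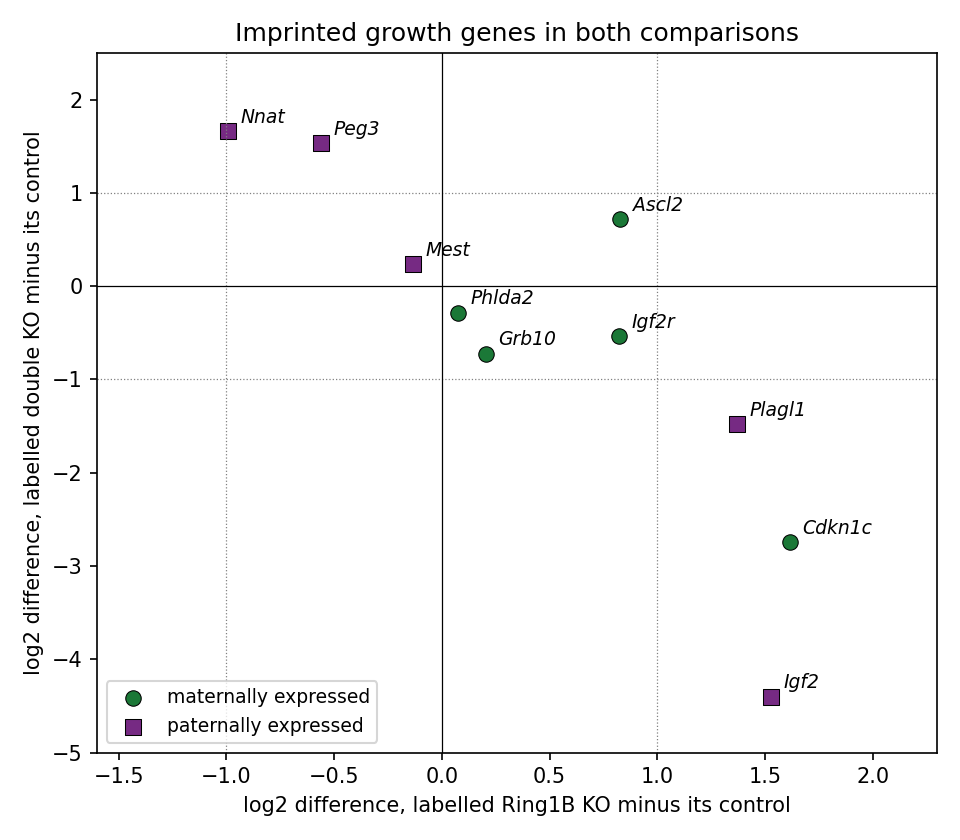
Log2 difference of each gene on the array labelled Ring1B KO from its control (x axis) and on the array labelled dKO from its control (y axis), 1 point per gene at its brightest probe set; dotted lines mark 2-fold. All genes but Ascl2 lie in the quadrants of opposite direction, with Igf2 at 1.53 and −4.40 and Nnat at −0.99 and 1.66.

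Of the 10 genes, 9 had opposite directions in the pairs, against 62.1% of 11611 genes above the floor in both. The pairs share no array. At 2-fold in both pairs, 3 of the 10 were opposed (Igf2, Cdkn1c and Plagl1), against 2.69% of those genes. With the mean over all probe sets of a gene Cdkn1c alone was. Igf2 then differed by 0.76 in the Ring1B pair, and Plagl1 by 0.46 in the Ring1B pair and −0.52 in the dKO pair. The other Igf2 and Plagl1 probe sets were at the floor on both Ring1B arrays and so only shrank the mean. Cdkn1c has 1 probe set and could not change. The arrays ran from low to high as dKO, Ring1B control, Ring1B KO and dKO control for Igf2, Cdkn1c, Grb10 and Phlda2. Among 13139 genes above the floor on any array, 4.53% had this order. It was singled out as the most common order of the 10 genes, so that share does not test it. For Phlda2 the steps of that order were small, 2631, 2800.4, 2952 and 3203. Nnat and Mest ran in the complete reverse of that order, highest on the array labelled dKO and lowest on the dKO control array. For Mest the steps were small as well.

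The ranges of maternally and paternally expressed genes overlapped in both pairs. In the Ring1B pair all 5 maternally expressed genes were higher on the array labelled KO, at 0.08 to 1.61 with a median of 0.82. The 5 paternally expressed genes ranged from −0.99 to 1.53 with a median of −0.13, and 2 were higher. In the dKO pair the paternally expressed genes ranged from −4.40 to 1.66 with a median of 0.23, and 3 were higher. The maternally expressed genes lay inside that range, from −2.74 to 0.72 with a median of −0.54, and only Ascl2 was higher. The paternal median minus the maternal median was −0.95 in the Ring1B pair and 0.77 in the dKO pair.

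The arrays labelled wild-type were also at least 2-fold apart for 5 of these genes. On the dKO control array against the Ring1B control array, Igf2, Cdkn1c, Plagl1 and Igf2r were at least 2-fold higher (12.5-, 4.20-, 3.71- and 2.79-fold), and Nnat was 2.13-fold lower. Of all 12692 genes above the floor there, 12.2% were higher by that measure and 8.19% lower. In either direction this was 20.4% of all genes. Peg3, Phlda2 and Mest differed between these arrays by −0.06, 0.19 and −0.21. At any size 7 of the 10 were higher, against 57.2%. These sizes depend on the scaling to a common mean, because the authors' values of the pairs have different means, and Igf2r turned to −0.16 with the values as deposited. Without scaling Igf2 remained higher on the dKO control array, by 2.00, Cdkn1c by 0.43 and Plagl1 by 0.25. That setting moved the median over genes by −1.64.

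Set against the Ring1B control array in place of its own control, the array labelled dKO differed by −0.76 for Igf2, −0.67 for Cdkn1c and 0.41 for Plagl1, each under 2-fold. It differed by 1.48 for Peg3, 1.16 for Ascl2 and 0.57 for Nnat. Peg3 and Ascl2 were thus the members at least 2-fold apart, 2 of 10 against 17.7% of 12303 genes. Between the array labelled Ring1B KO and the dKO control array only Igf2 was, at −2.11, 1 of 10 against 19.2% of 12588 genes. Between the array labelled dKO and the array labelled Ring1B KO 4 of 10 were, against 23.3% of 12377 genes. The median size of the log2 difference over the 10 genes was 0.82 in the Ring1B pair, 1.10 in the dKO pair and 0.42 to 0.84 in the other pairings of arrays, beside 0.26, 0.33 and 0.47 to 0.54 over all genes. These values across pairs rest on the scaling.

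Igf2, Ascl2, Cdkn1c and Phlda2 lie on distal mouse chromosome 7, and the stretch from the last Igf2 window to that of Phlda2 covers 845 kb. The region is controlled by imprinting centres near H19 and within Kcnq1. H19 was not analysed here. Of 18 neighbours, taken from 3 genes before Igf2 to 3 after Phlda2 in the RefSeq order, 14 were above the floor in the Ring1B pair, with a median of −0.05, and 12 in the dKO pair, with a median of −0.20. None of them was at least 2-fold higher in the Ring1B pair, against 3.57% of all genes. None was at least 2-fold apart in the dKO pair, against 13% of all genes. With so few neighbours, such counts lie near those shares. Tspan32, a tetraspanin gene, was 2.34-fold lower on the array labelled Ring1B KO.

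**Figure D3:**
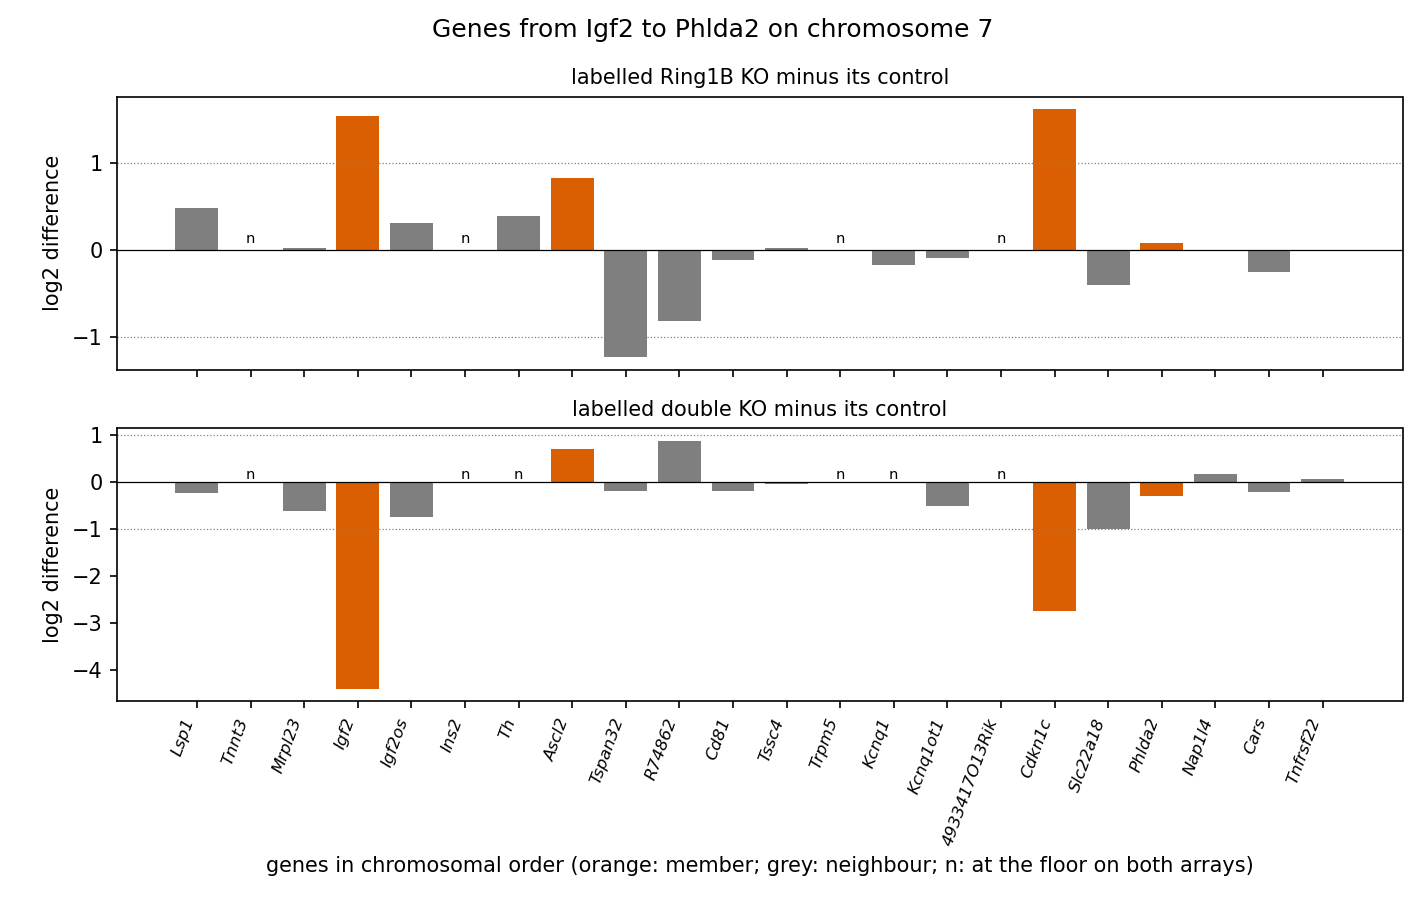
Log2 differences of the genes from Igf2 to Phlda2 on chromosome 7 with 3 flanking genes on each side, in chromosomal order and not to scale, for the array labelled Ring1B KO (top) and the array labelled dKO (bottom), each minus its control; n marks a gene at the floor on both arrays and orange the members. Igf2 and Cdkn1c lie at 1.53 and 1.61 (top) and −4.40 and −2.74 (bottom). Their neighbours mostly lie within 2-fold, as do most genes above the floor.

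Next to Igf2, the antisense transcript gene Igf2os was dim and differed by 0.31 and −0.74, each a bound on its size since the other array was at the floor. Kcnq1ot1, the noncoding RNA that silences the paternal copies around it, read 214 on the array labelled Ring1B KO against 228 on its control, and 175 on the array labelled dKO against 249 on its control. Its differences of −0.09 and −0.51 were under 2-fold. Slc22a18, between Cdkn1c and Phlda2, differed by −0.40 and −0.98. No neighbour above the floor in that stretch came to the size of the Cdkn1c difference in either pair.

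Around the other 6 members, 36 neighbours within 3 genes on each side were looked at, of which 19 were above the floor in each pair. In the Ring1B pair 2 of the 19 (10.5%) were at least 2-fold lower and 0 higher, against 6.17% of all genes at least 2-fold apart. In the dKO pair 3 were at least 2-fold higher and 1 lower, 21.1% against 13% of all genes. Blcap, the gene in which Nnat lies, differed by −0.02 and −0.44 while Nnat differed by −0.99 and 1.66. Copg2, next to Mest, differed by −0.68 and 0.09. Next to Peg3, Zim1 and Usp29, imprinted zinc finger and protease genes of its domain, were at the floor on all arrays. Next to Igf2r, Airn, the noncoding RNA that silences the paternal Igf2r copy, was near or at the floor on all arrays. Utrn, 3 genes before Plagl1, ran against it, at −1.29 and 1.52.

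Other imprinted genes served as a wider list. Of 20 further maternally expressed genes named on the array, 16 were above the floor in the Ring1B pair, with a median of −0.05, 0 at least 2-fold higher and 1 lower (Tspan32). In the dKO pair 14 were above it, with a median of −0.19, 0 higher and 2 lower. The lower ones were Dcn, which encodes the matrix proteoglycan decorin (3.76-fold, 54.7 against 206), and Gatm, an enzyme gene of creatine synthesis (at least 2.05-fold). Of 19 further paternally expressed genes, 14 were above the floor in the Ring1B pair, with a median of −0.41, 1 higher and 1 lower. In the dKO pair 12 were above it, with a median of −0.33, 1 higher and 4 lower. Of all genes above the floor, 3.57% were at least 2-fold higher and 2.60% lower in the Ring1B pair. In the dKO pair these shares were 3.0% and 10%. With lists this short, several of the counts lie near those shares.

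Sfmbt2, which encodes a Polycomb-related protein and is imprinted in trophoblast, followed the course of Igf2. It read 2086 on the array labelled Ring1B KO against 958 on its control, and 640.0 on the array labelled dKO against 2153 on its control. Ndn, which encodes the growth-restraining protein necdin, read 139 on the array labelled dKO and 441 on its control, 3.17-fold lower, and differed by 0.49 in the Ring1B pair. Sgce, a sarcoglycan gene, was 2.12-fold lower on the array labelled dKO (493 against 1046) and differed by −0.64 in the Ring1B pair. Impact, a regulator of translation, went with Peg3, at 1537 on the array labelled dKO and 709 on its control, and differed by −0.55 in the Ring1B pair. Mkrn3, a RING-finger gene, was 2.35-fold lower on the array labelled Ring1B KO (67.4 against 159).

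Of the genes that receive, bind or pass on the IGF signal, 18 of 22 named were above the floor in each pair. In the Ring1B pair 2 were at least 2-fold higher, Igf2bp3, which encodes an RNA-binding protein of Igf2 transcripts (2.29-fold, 735 against 320.4), and the protease gene Htra1 (2.14-fold), and 0 were lower, with a median of 0.52. In the dKO pair 4 were at least 2-fold lower and 1 higher, with a median of −0.25. The lower ones included Igfbp7, a secreted IGF-binding protein gene (4.20-fold, 228 against 958), Grb14, an adaptor gene related to Grb10 (3.03-fold), and Igfbp6 (at least 2.54-fold). Igf1r, the receptor of IGF2, was the fourth and was named after its values were seen, at 219 on the array labelled dKO and 484 on its control. Igfals, which encodes a carrier protein of circulating IGF, was at least 2.64-fold higher. Of all genes above the floor, 3.57% were at least 2-fold higher and 2.60% lower in the Ring1B pair. In the dKO pair these shares were 3.0% and 10%.

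Genes that keep or set imprints were above the floor in both pairs, 22 of 22, with medians of −0.01 and 0.15. Dppa3, which protects maternal imprints in the early mouse embryo, was 5.29-fold lower on the array labelled Ring1B KO (358 against 1894) and differed by −0.23 in the dKO pair. Dnmt3a, a DNA methyltransferase gene, was 3.63-fold higher on the array labelled dKO (2029.8 against 559). Zfp57 differed by −0.48 in the dKO pair, and Dnmt3l, a cofactor of the methyltransferases, by 0.97 in the Ring1B pair. All others in the list were under 2-fold apart in both pairs. Of all genes above the floor, 6.17% were at least 2-fold apart in the Ring1B pair and 13% in the dKO pair.

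**Figure D4:**
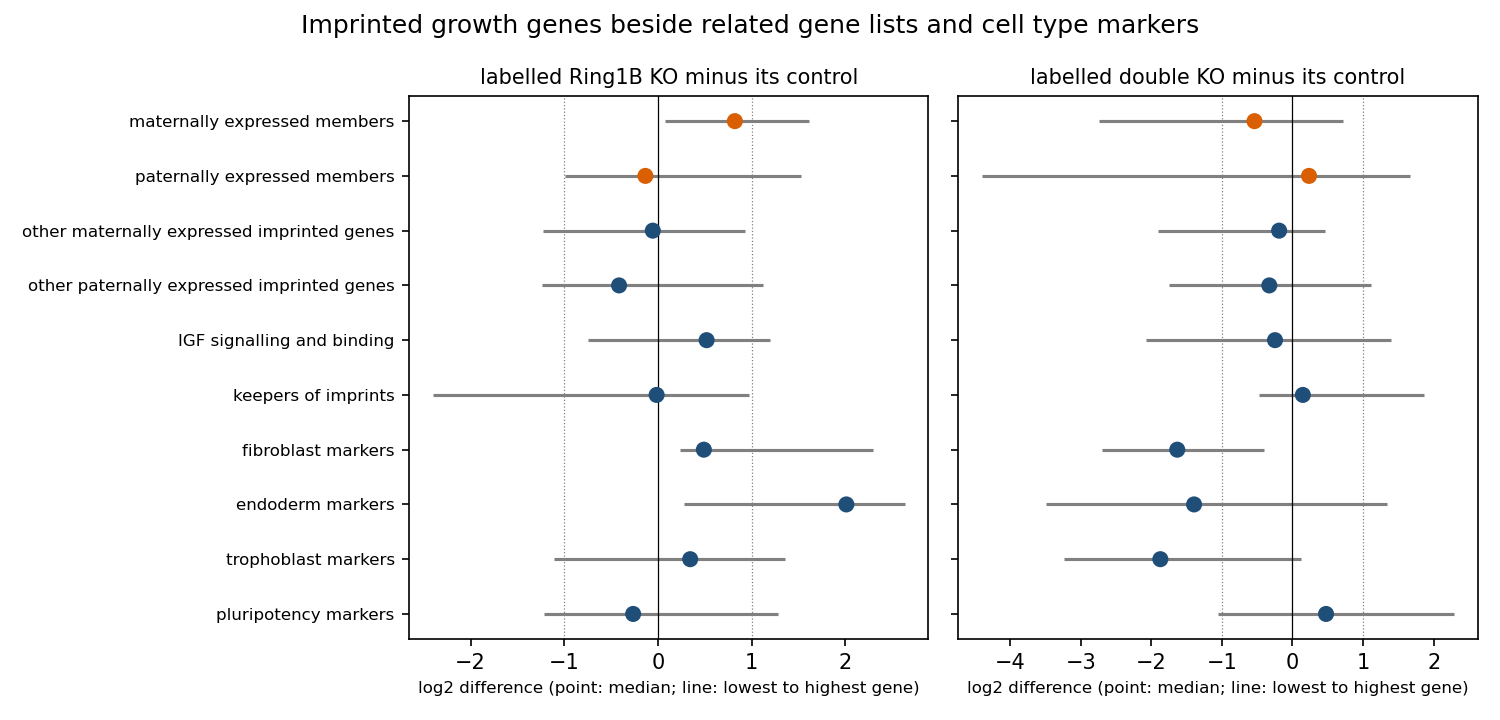
Median (point) and range (line) of the log2 difference of each gene list, on the array labelled Ring1B KO minus its control (left) and on the array labelled dKO minus its control (right), over genes above the floor; orange points are the 10 members by parental class. Endoderm markers had the highest median on the left (2.01) and trophoblast markers the lowest on the right (−1.87), and the paternally expressed members span the widest range on the right.

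Within each pair, most marker genes of other cell types differed in the direction of Igf2 and Cdkn1c. By summed signal, trophoblast markers were highest on the dKO control array, and fibroblast and endoderm markers on the array labelled Ring1B KO. Of 19 fibroblast markers, 18 were above the floor in the Ring1B pair. All 18 were higher on the array labelled KO, against 48.2% of all genes. At least 2-fold higher was 1 of the 18 (Pdgfra, which is also on the endoderm list), against 3.57% of all genes. All 19 were lower on the array labelled dKO, 16 of them at least 2-fold, against 10% of all genes. The summed signal of the 19 was 24081 on the array labelled Ring1B KO against 16158 on its control. It was 3129 on the array labelled dKO against 8747 on its control. None of the 19 was at the floor on the dKO control array, and 3 were on the array labelled dKO. Between the arrays labelled wild-type, 0 of 19 were at least 2-fold higher on the dKO control array and 5 lower. Of all genes 12.2% were higher and 8.19% lower by that measure, and the fibroblast median was −0.34.

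Of 19 endoderm markers, 18 were above the floor in the Ring1B pair and 15 in the dKO pair. On the array labelled Ring1B KO 14 were at least 2-fold higher and 0 lower, against 3.57% and 2.60% of all genes. On the array labelled dKO 9 were at least 2-fold lower and 1 higher, against 10% and 3.0%. The sums over the 19 were 33337 on the array labelled Ring1B KO against 11194.5 on its control. They were 7562 on the array labelled dKO against 15337 on its control. Of 15 trophoblast markers, 11 were above the floor in the Ring1B pair and 12 in the dKO pair. On the array labelled Ring1B KO 2 were at least 2-fold higher and 1 lower, against the same shares of all genes. On the array labelled dKO 9 were at least 2-fold lower and 0 higher. The sums over the 15 were 4366 on the array labelled Ring1B KO against 3605 on its control. They were 3227 on the array labelled dKO against 12474 on its control. Between the arrays labelled wild-type, 11 trophoblast markers were above the floor. Of these, 8 were at least 2-fold higher on the dKO control array, against 12.2% of all genes. Another 1 was at least 2-fold lower, against 8.19%, and the median of the 11 was 2.39. Among the higher ones were the keratin genes Krt18 (10.3-fold, 5523 against 539) and Krt7 (8.85-fold) and the trophoblast transcription factor gene Gata3 (at least 10.1-fold). The lower one was Tfap2c (4.79-fold, 312 against 1496), which was also the lower one in the Ring1B pair (2.16-fold). Elf5, Plac1 and Psg17 were at the floor on all arrays. Of the trophoblast sum of 12474 on the dKO control array, Krt18 alone gave 5523. Of 16 endoderm markers above the floor between the control arrays, 1 was at least 2-fold higher and 4 lower. The shares of all genes were again 12.2% and 8.19%, and the endoderm median was −0.18. The part of fibroblast, endoderm or trophoblast RNA in the signals of the 10 genes was not tested. Pluripotency markers were above the floor throughout, 16 of 16, with medians of −0.26 and 0.48.

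The genes whose signals over the 4 arrays were most like those of Igf2 were found among 10292 genes above the floor on all arrays, by the Euclidean distance between log2 signals less each gene's mean. The nearest were the chemokine gene Cxcl14 (0.22), Dlk1 (0.66), Morc4 (0.89), the germline gene Tdrkh (0.89) and the germline gene Taf7l (0.94). Cxcl14 read 253 on the array labelled Ring1B KO against 92.3 on its control, and 63.7 on the array labelled dKO against 1192 on its control. Cdkn1c stood at rank 18, at 1.41. Nearest to Cdkn1c were Tgfbi, a matrix protein gene (0.28), Rbp4, which encodes a retinol carrier (0.35), Piwil2, a germline gene (0.40), Esx1 (0.46) and Phlda1 (0.49). Igf2 was only at rank 342 for Cdkn1c, at the same 1.41, and Plagl1 was at rank 113 for Cdkn1c and 140 for Igf2. With 4 arrays, many genes can share a course.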

How the data were processed

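Affymetrix mouse arrays were read for 4 ES cell samples, 1 per group by label. The deposited values are linear signal intensities per probe set, which the authors computed by MAS5 according to the submitters' processing notes. Its version and settings are not given in the sources used here. As deposited, the mean without the highest and lowest 2% was 500.0 on the Ring1B arrays, 147 on the array labelled dKO and 160.4 on its control. Each array was therefore brought to 277 (factors 0.554, 0.554, 1.89 and 1.73), floored at the 40th percentile, 36.6, and log2-transformed. The floor shrinks differences of dim genes, and where 1 array of a comparison is at it the fold is a bound. No detection call or saturation flag was used.

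From 45101 probe sets, those with 1 symbol (34945) were kept. Another 932 had several symbols, 9211 had none here and 13 with a symbol were manufacturer's controls. Entrez identifiers of 34737 matched the RefSeq table. Each of 18193 genes was represented by its brightest probe set on average. Each KO array was set against its own control, and the control arrays against each other; nothing was tested across arrays. All 10 members are named, with up to 3 genes per direction from each list. The members and lists were chosen with earlier results of these data known. Motif letters, the order of the arrays, neighbours and genes of other pairings were looked at after values were seen. List genes with no name on the array were not analysed here. Alternatives changed the scaling, the floor, the choice of probe set and the place of Grb10. The steps were tested on simulated data. Python 3.11.15, numpy 2.4.6, pandas 2.3.3, scipy 1.17.1 and matplotlib 3.10.9 were used.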

Additional observations from a re-analysis of the deposited data

Results flagged for a closer look

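For 9 of the 10 genes the difference from the own control had opposite directions in the pairs. The same held for 62.1% of 11611 genes above the floor in both pairs. With 1 array per group the difference between the pairs was not tested, and for Phlda2 and Mest it was small. The dKO difference minus the Ring1B KO difference, on the log2 scale, was −5.93 for Igf2, −4.36 for Cdkn1c, −2.85 for Plagl1, −1.36 for Igf2r, −0.93 for Grb10 and −0.36 for Phlda2. It was 2.65 for Nnat, 2.10 for Peg3 and 0.37 for Mest.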

How the results depend on the processing

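No paired analysis was possible because each group has 1 array and the labels give no replicate numbers; leaving out an array was not possible for the same reason. Of 248 values under the alternatives, 220 moved by less than 1.5-fold (for counts, stayed within 1.5 times). With the mean over all probe sets, 1 gene in place of 3 was at least 2-fold apart in the Ring1B pair (Cdkn1c). That fall follows from Igf2 and Plagl1 probe sets at the floor, which shrink the mean, while Cdkn1c has only 1 probe set. Probe sets ending in _s_at, _x_at or _a_at were then left out. Without them, 3 in place of 5 were at least 2-fold apart in the dKO pair and 3 in place of 5 between the control arrays. Nnat and Grb10 have no other probe set and gave no value, and Plagl1 had −0.09 in the dKO pair. With a floor at the 60th percentile, the paternal minus maternal median in the Ring1B pair was −0.26 in place of −0.95. With the values as deposited, the medians between the control arrays were −1.06 in place of 0.58 for maternally and −1.70 in place of −0.06 for paternally expressed genes, and Igf2r turned to −0.16 in place of 1.48. This follows from the construction, since those values have a different mean in each pair. The paternal median between the control arrays, near 0, became 0.02 when probe sets with those suffixes were left out. Ascl2 then turned to −0.78, and to −0.23 as a mean over probe sets. As deposited, Ascl2, Phlda2 and Grb10 turned between the control arrays to −1.19, −1.45 and −1.06. For Igf2 the differences ranged from 0.76 to 1.54 in the Ring1B pair and from −4.53 to −2.42 in the dKO pair, and for Peg3 in the dKO pair from 1.08 to 1.54. Signals of Nnat and Ascl2 near the floor limit what can be said of their sizes.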

Other observations

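Over all 18193 genes the log2 signals of arrays of 1 pair were the most alike, with Pearson correlations of 0.981 for the Ring1B pair and 0.968 for the dKO pair, against 0.941 to 0.958 across pairs. Genes are not independent replicates, and these values compare single arrays.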
